A study of Macaca radiata with 4 samples.

Results

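Genes of cholesterol synthesis, uptake, transport and efflux were followed in the corpus luteum of female bonnet monkeys (Macaca radiata) after LH was given back. A gene belonged to the set when a probe set carried its name as the sole gene symbol in the platform annotation. Of 37 genes listed, 28 were found this way, out of 14132 genes on the array. Each was read from its brightest probe set, the one with the highest mean of log2(signal + 16) over the 4 arrays. The 28 comprised 12 of 15 synthesis enzymes, 5 of 5 regulators of sterol-responsive transcription and 11 of 17 genes of uptake and transport. The uptake and transport list also held lysosomal and efflux genes and MYLIP, which degrades receptors, so its median is not a measure of uptake. The enzymes ACAT2, HMGCS1 and LSS, the receptors SCARB1, LRP1 and SCARB2, the ester-handling enzymes SOAT1 and LIPE and the transporter ABCG1 were not matched with this annotation and were not analysed here.

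All animals had received CET at 150 µg/kg 7 days into the luteal phase, which per the labels inhibits the secretion of the animal's own LH. At 24 h the PBS group was injected with vehicle and the rhLH group with 20 IU/kg of LH, and corpora lutea were collected 8 h later. The PBS group is replicates 1 and 2, and the rhLH group is replicates 3 and 4. No animals without CET were part of the comparison, and the labels do not tie an array to an animal, so the p-values measure the spread between arrays. The tissue is a mixture of cell types, in which fewer cells of a type and less RNA per cell cannot be told apart.

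A luteal cell needs cholesterol as the raw material of progesterone. It takes most of it from lipoproteins in the blood, through receptors of the LDL receptor family and the scavenger receptor SCARB1, and it can also build it from acetyl-CoA through mevalonate, farnesyl diphosphate, squalene and lanosterol. When the endoplasmic reticulum runs low in sterol, SCAP carries the SREBP transcription factors to the Golgi apparatus, where they are cut loose and switch on the synthesis enzymes and the LDL receptor. INSIG proteins hold SCAP back when sterol is plentiful. Oxysterols act through LXR receptors, which raise the efflux pumps ABCA1 and ABCG1 and the ubiquitin ligase MYLIP, a degrader of LDL receptor family proteins.

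The tissue label was met by its markers. STAR, which moves cholesterol into mitochondria, had signals from 24283 to 54566, and HSD3B2, which completes progesterone, from 25500.1 to 38138. Of 10 granulosa-lutein markers 8 were measured. With rhLH 5 of these lay above both PBS arrays, where 15.1% of all genes did. STAR, INHA and INHBA overlapped, INHA reading 7756 and 44827 with PBS and 36496 and 35762 with rhLH. The summed signal of the list was 69421 and 149241 with PBS and 149335 and 160917 with rhLH. CYP11A1 and LHCGR were not matched. The part of the share of lutein cells in the results was not tested. PBS replicate 1 stood apart: its Pearson correlations with the other arrays across kept probe sets were 0.752 to 0.780, against 0.940 to 0.947 among those. Its ratio of 3′ to 5′ control signal, which grows when RNA is shortened, was 11.2 for actin against 1.49 to 1.59 on the others, and 3.23 for GAPDH against 1.62 to 2.28. It was 1.06 for EF1A, against 0.884 to 0.949. Signals of members are therefore given array by array, and many differences, though not all, against each PBS array. The part of RNA quality in the results was not tested.

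Synthesis enzymes stood slightly higher with rhLH, and no member passed the test. The receptor VLDLR, the receptor degrader MYLIP and the regulators INSIG1 and INSIG2 stood lower. The median log2 difference, rhLH minus PBS, was 0.41 over the 12 synthesis enzymes, −0.42 over the 5 regulators and −0.09 over the 11 uptake and transport genes, against −0.02 over all 14132 genes. The uptake and transport median took the opposite sign, 0.14, when arrays were centred on their medians. That centring moved the median of all genes to 0.21, so this list stayed below the general level while the synthesis median, at 0.64, stayed above it. All 12 synthesis enzymes had a positive difference, as did 5 of the 11 uptake and transport genes and 48.3% of all genes. With quantile normalization 11 of the 12 did, with FDPS at −0.09.

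In the limma test 0 of the 27 members that passed the filter on low signal had an adjusted p under 0.05, as was the case for 0% of the 31659 probe sets tested. An unadjusted p under 0.05 was found for 0 of the 27 and for 2.02% of probe sets, and the lowest among members was 0.0532 (limma), for VLDLR. The member set aside by the filter was ABCA1. Both rhLH arrays lay above both PBS arrays for 3 members and below them for 4, which compares with 15.1% of all genes above and 17.5% below. The 3 above were all synthesis enzymes, out of 12, and the 4 below were 2 of 5 regulators and 2 of 11 uptake and transport genes. The 28 as a whole lay near the general share. The difference exceeded the gap within both pairs for 4 members (MVD, INSIG1, INSIG2 and VLDLR), or 14.3%, against 17.3% of all genes. The count of synthesis enzymes above was 6 without PBS replicate 1, 9 without PBS replicate 2, 8 without rhLH replicate 3 and 3 without rhLH replicate 4, and was 6 with median centring and 2 with quantile normalization. The count of uptake and transport genes below was 3, 6, 2 and 5 in the same order, and fewer arrays separate more easily. The shares of 15.1% and 17.5% are for all 4 arrays without rescaling. No share of all genes is given for the other settings, so these counts cannot be read as a result about the members.

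**Figure D1:**
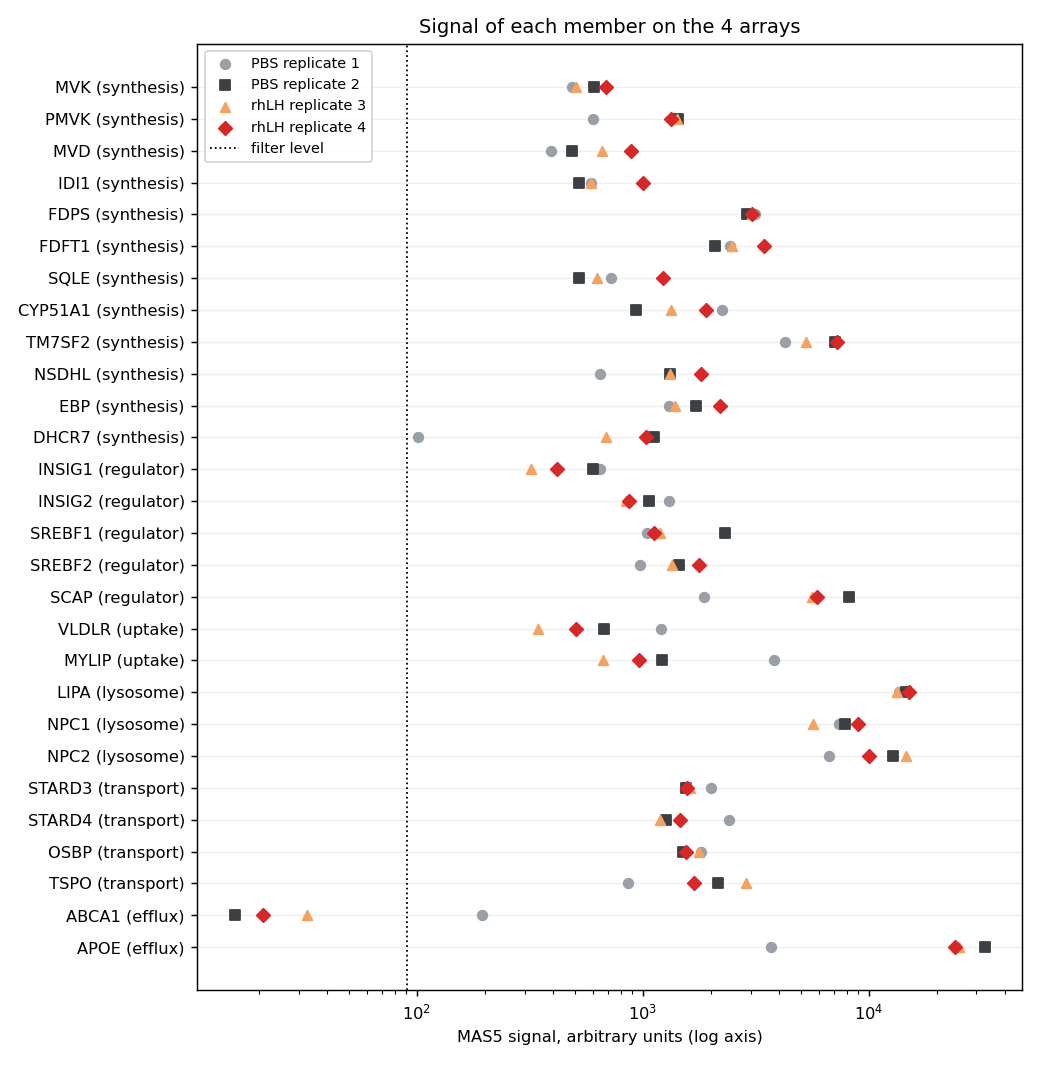
The deposited signal (horizontal, log axis, arbitrary units) of each of the 28 measured genes is plotted for the 4 arrays, 1 point per array, with the filter level of 90.7 as a dotted line. PBS replicate 1 lies far from the other points for DHCR7, SCAP, APOE and ABCA1, while both rhLH points lie left of both PBS points for INSIG1, INSIG2, VLDLR and MYLIP.

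The early mevalonate steps are those that phosphorylate mevalonate and turn it into the isoprene unit. MVD, the decarboxylase that forms isopentenyl diphosphate, had signals of 393 and 485 with PBS and 661 and 887 with rhLH (probe set MmuSTS.1567.1.S1_at). The groups did not overlap, and the difference was larger than the gap within either pair. Its mean was 439 ± 65.5 (SD, n = 2) with PBS and 774 ± 160 (SD, n = 2) with rhLH, a 1.73-fold difference (log2 0.79, SE 0.38, limma adjusted p = 0.919), made up of 0.94 relative to PBS replicate 1 and 0.64 relative to replicate 2. The second MVD probe set read 354 and 489 with PBS and 646 and 838 with rhLH, nearly the same values.

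IDI1, which interconverts the 2 isoprene units, read 590.7 and 524 with PBS and 591.6 and 999 with rhLH. The groups were parted by less than 1 signal unit, and the difference of 0.46 on the log2 scale was 0.09 without rhLH replicate 4. Its further probe sets overlapped between groups, at 0.24 and 0.56. MVK, the mevalonate kinase, read 488 and 610.5 with PBS and 506 and 685 with rhLH, and PMVK, the phosphomevalonate kinase, 603 and 1429 against 1425 and 1332. For PMVK 3 arrays were alike and PBS replicate 1 was the low one. Against PBS replicate 2, MVK and PMVK differed by −0.05 each.

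The next enzymes join isoprene units and commit them to sterols. FDPS, which makes farnesyl diphosphate, was the flattest synthesis gene, with signals of 3150.3 and 2881 with PBS and 3051 and 3030.3 with rhLH. FDFT1, the squalene synthase, read 2446 and 2089 with PBS and 2472 and 3454 with rhLH. The groups did not overlap, but rhLH replicate 3 exceeded PBS replicate 1 by little, and the difference of 0.37 (SE 0.33) was 0.13 without rhLH replicate 4. A further FDFT1 probe set overlapped, at 0.02. SQLE, the squalene epoxidase and a controlled step of the pathway, read 722 and 523 with PBS and 626 and 1233 with rhLH, so that rhLH replicate 3 fell inside the PBS range. Its dimmer probe set did separate the groups, at 86.8 and 235.5 with PBS against 278.5 and 381 with rhLH. The brightest gave 0.51 and the dimmer 1.09 on the log2 scale, and the brightest was 0.03 without rhLH replicate 4.

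The late enzymes turn lanosterol into cholesterol. CYP51A1, the lanosterol demethylase, read 2245 and 929.6 with PBS and 1332 and 1914.5 with rhLH, both rhLH arrays lying between the PBS arrays. Its difference was −0.49 relative to PBS replicate 1 and 0.77 relative to replicate 2, and its further probe set gave −0.06 and 0.44. TM7SF2, a sterol reductase, read 4245 and 7072 with PBS and 5293 and 7272 with rhLH. EBP, the sterol isomerase, read 1313 and 1726 against 1387 and 2206. In both genes the PBS and rhLH values interleaved.

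NSDHL, the sterol dehydrogenase, read 644 and 1325 with PBS and 1324 and 1802 with rhLH. Its log2 difference of 0.73 was made up of 1.24 relative to PBS replicate 1 and 0.22 relative to replicate 2, whereas its other probe set gave −0.46 and 0.63. DHCR7, which makes cholesterol in the last step, showed the widest split: 102 and 1127 with PBS, against 688.5 and 1033 with rhLH. PBS replicate 1 was 11.1 times below PBS replicate 2, and the rhLH mean lay 2.87 above the former and −0.41 from the latter on the log2 scale.

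**Figure D2:**
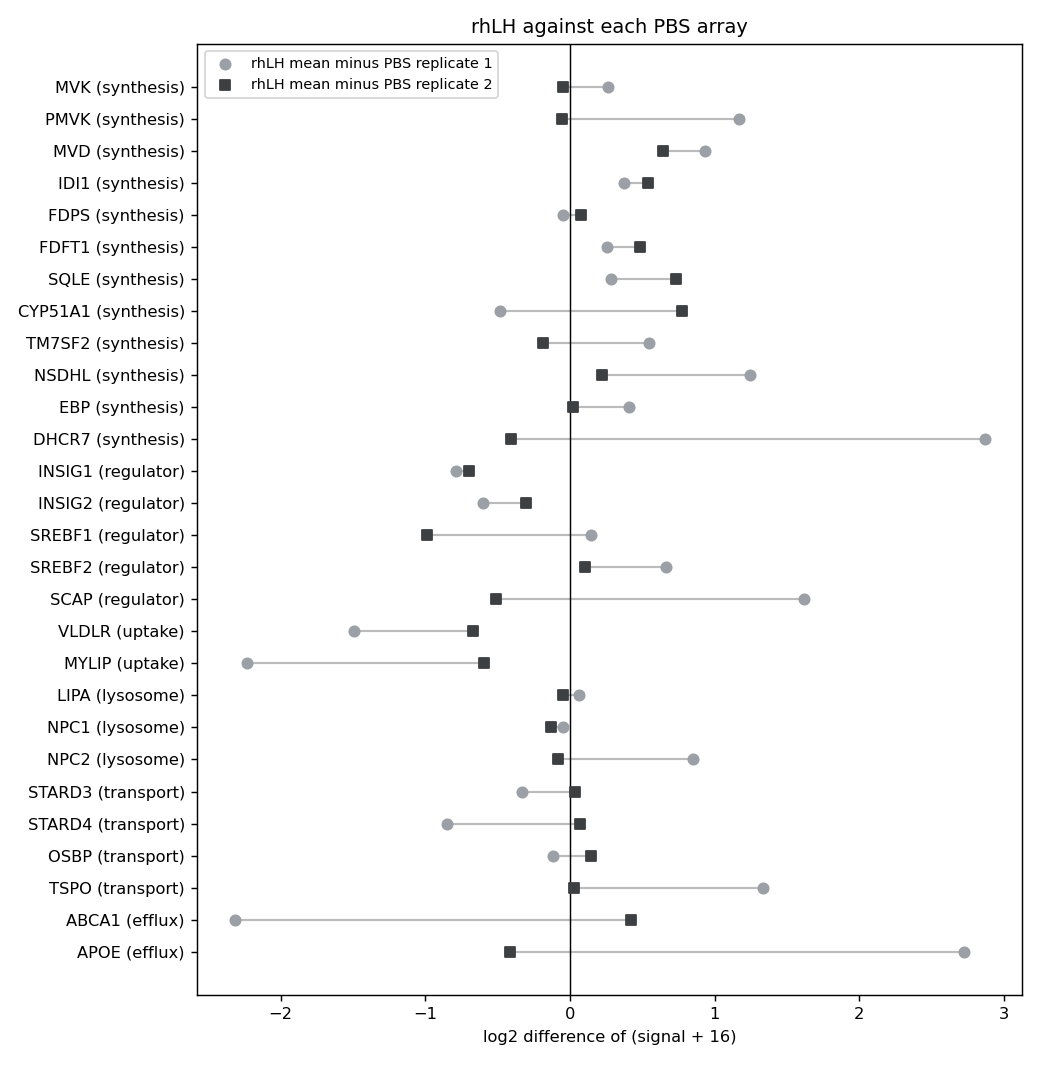
For each gene the log2 difference of the rhLH mean from PBS replicate 1 (grey circles) and from PBS replicate 2 (dark squares) is joined by a line. The points lie on opposite sides of 0 for 15 of the 28 genes, and on the same side, far from 0, for MVD, VLDLR, MYLIP and INSIG1. No share of all genes is given beside the 15.

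Against PBS replicate 1 alone, 10 of 12 synthesis enzymes had a positive difference (median 0.39; all genes −0.08, with 46.5% positive). Against PBS replicate 2 alone 8 of 12 did (median 0.15; all genes −0.01, with 49.4% positive). The enzymes MVD, IDI1, FDFT1, SQLE, NSDHL and EBP, 6 in all, were positive against both, and the other 6 took opposite signs. These 2 comparisons share the rhLH arrays and are given side by side for that reason. No share of all genes is given for the counts of 6, so they cannot be set against a general level.

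The rhLH arrays themselves differed in this pathway. Replicate 4 exceeded replicate 3 for 10 of the 12 synthesis enzymes, by a median of 0.47 on the log2 scale, while over all genes the median was −0.01 and 48.9% were higher on replicate 4. SQLE was 1.97 times and IDI1 1.69 times as high on replicate 4, and PMVK and FDPS were the 2 exceptions, at 0.934 and 0.993 times. The synthesis median was 0.75 for replicate 4 over PBS replicate 1 and 0.395 over PBS replicate 2, but 0.065 and 0.04 for replicate 3. Without rhLH replicate 4 the pooled median was 0.06, with 8 of 12 positive. The higher synthesis level was thus carried mostly by 1 rhLH array, and its difference from PBS replicate 2 was smaller than the median gap between the rhLH arrays.

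**Figure D3:**
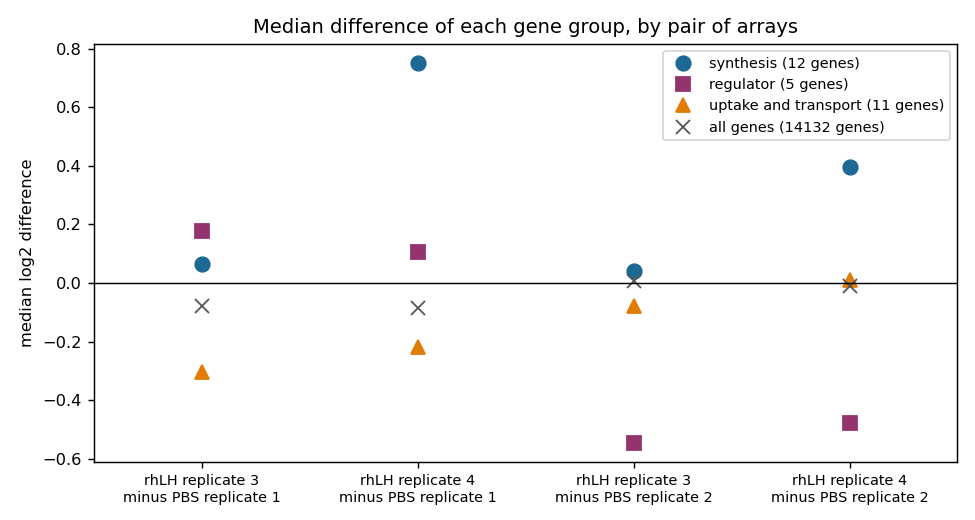
Median log2 difference of each gene group for each pair of an rhLH and a PBS array. The synthesis points are highest for the pairs with rhLH replicate 4 (0.75 and 0.395) and near 0 for those with replicate 3, and the regulator points change sign with the PBS array.

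Among the regulators, the 2 INSIG genes lay below both PBS arrays. INSIG1, which retains SCAP in the endoplasmic reticulum and is itself a target of SREBP, read 646 and 605 with PBS and 320.3 and 419.6 with rhLH (probe set MmugDNA.32189.1.S1_at). The means were 625 ± 28.6 and 370 ± 70.3 (SD, n = 2 each), 1.68-fold lower with rhLH (log2 −0.74, SE 0.38, limma adjusted p = 0.919), with near equal differences of −0.79 and −0.70 from the PBS arrays. Its other probe set, at 768 and 284 with PBS and 395 and 462 with rhLH, did not separate the groups. INSIG2, a paralog with the same role, read 1311 and 1064 with PBS and 847 and 870.3 with rhLH (log2 −0.45, SE 0.33). For both, the difference exceeded the gap within either pair, but the further INSIG2 probe set was at 0.005.

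SREBF1 and SREBF2 encode the SREBP factors, SREBF2 being the one tied most closely to cholesterol synthesis. SREBF2 read 972 and 1442 with PBS and 1350 and 1774.5 with rhLH. Its log2 difference of 0.38 was 0.66 relative to PBS replicate 1 and 0.10 relative to replicate 2. In the pooled difference its 3 further probe sets were also positive, at 0.04, 0.57 and 0.71, the last 2 with groups that did not overlap. The one at 0.04 was −0.25 relative to PBS replicate 1 and 0.33 relative to replicate 2. The sets at 0.04 and 0.57 differ in name only by a suffix (MmugDNA.6208.1.S1). SREBF1 read 1047 and 2309 with PBS and 1187 and 1127 with rhLH. PBS replicate 2 was the high array, and the differences were 0.14 and −0.99. SCAP, the escort protein, read 1858 and 8201.5 with PBS and 5617 and 5878 with rhLH, and PBS replicate 1 stood 4.41 times below PBS replicate 2. The regulator median was 0.14 relative to PBS replicate 1 and −0.51 relative to replicate 2.

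The 2 measured genes listed under uptake, a receptor and a degrader of such receptors, were both lower with rhLH. Their differences therefore do not add up to a direction of uptake. VLDLR, a lipoprotein receptor of the LDL receptor family, read 1207 and 677 with PBS and 345 and 508 with rhLH. The means were 942 ± 375 and 427 ± 115 (SD, n = 2 each), 2.12-fold lower with rhLH (log2 −1.08, SE 0.45, limma adjusted p = 0.919), and the groups did not overlap. The difference was −1.49 from PBS replicate 1 and −0.67 from PBS replicate 2. MYLIP, also called IDOL, which marks LDL receptor family proteins for breakdown, read 3830 and 1217 with PBS and 665 and 966 with rhLH. Its difference was −2.23 relative to PBS replicate 1 and −0.59 relative to replicate 2, so most of the pooled −1.41 (SE 0.59, limma adjusted p = 0.919) came from 1 array. The further MYLIP probe sets were at −0.12 and −0.14. The one at −0.12 was 0.14 relative to PBS replicate 1 and −0.38 relative to replicate 2. The endothelial markers, from a cell type that also makes VLDLR, summed to 18720 and 24089 with PBS and 21441 and 22920 with rhLH over 8 of 8 genes. Among them PECAM1 lay below both PBS arrays, KDR and TIE1 lay above both, and the others overlapped. The part of endothelial cells in the VLDLR difference was not tested.

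Lysosomal genes, which free cholesterol from lipoprotein esters and pass it on, did not separate the groups. LIPA, the acid lipase, read 13557 and 14642 with PBS and 13341 and 15079 with rhLH. NPC1, the membrane exporter, read 7400.5 and 7858 against 5693 and 9008, with the rhLH arrays on either side of the PBS arrays. NPC2, its soluble partner, read 6707 and 12860 against 14591 and 10075. The differences of LIPA and NPC1 were 0.01 and −0.09. That of NPC2 was 0.38, made up of 0.85 with PBS replicate 1 as control and −0.085 with PBS replicate 2.

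Of the intracellular carriers, STARD3, a late endosome protein, read 2011 and 1561 with PBS and 1625 and 1571 with rhLH. STARD4, a cytosolic sterol carrier and SREBP target, read 2406 and 1262 with PBS and 1196 and 1468 with rhLH, a difference of −0.85 and 0.07 from the 2 PBS arrays. OSBP, an oxysterol-binding exchanger, read 1806 and 1504 against 1779 and 1551. TSPO, a protein of the outer mitochondrial membrane, read 862 and 2159 with PBS and 2857 and 1687.5 with rhLH, and its dimmer probe set, at 257 and 284 with PBS and 155.5 and 198 with rhLH, took the opposite direction (log2 −0.58 against 0.68). The TSPO value of 0.68 was 0.025 without PBS replicate 1, 1.33 without PBS replicate 2 and 0.05 with its probe sets averaged. No carrier gave groups that did not overlap on its brightest probe set.

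In both efflux genes PBS replicate 1 was the array that stood apart. APOE, the apolipoprotein that accepts cholesterol leaving the cell, read 3702 and 32711 with PBS and 25015 and 24056 with rhLH, and its 3 probe sets differed by 2.72, 4.14 and 4.01 from PBS replicate 1 and by −0.41, −0.30 and −0.77 from PBS replicate 2. The brightest APOE probe set carries the suffix of sets that may cross-hybridise (_x_at). ABCA1, the pump that loads APOE and APOA1, read 195 and 15.7 with PBS and 32.7 and 20.8 with rhLH. Of these 4 signals 3 were under the filter level of 90.7, and no test was made. Macrophage markers, from a cell type rich in APOE, summed over 10 of 11 genes to 11800.0 and 39318 with PBS and 24050 and 19601 with rhLH, a gap between the PBS arrays in the same direction as that of APOE. LYZ made up most of that gap, at 6121 and 28435 with PBS, MSR1 ran the other way, at 737 and 104.5, and the granulosa-lutein sum was also lower on PBS replicate 1. The part of these cell types in the APOE values was not tested.

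Set against each other, the synthesis median of within-gene log2 differences exceeded the uptake and transport median by 0.50 with both PBS arrays as control, by 0.51 with PBS replicate 1 and by 0.19 with PBS replicate 2. This last value was smaller than the median gap of 0.47 between the rhLH arrays for the synthesis enzymes. Without rhLH replicate 4 the pooled synthesis median was 0.06 and the uptake and transport median −0.12. Taken instead from signal levels on each array, the synthesis median minus the uptake and transport median was −1.80 and −0.35 with PBS and −0.42 and −0.02 with rhLH. That form differed by 0.85 between the groups, with PBS replicate 2 above rhLH replicate 3. It sets levels of different probe sets against each other and its middle gene can change between arrays, so the within-gene values are the ones to read. The signal-level form was the planned one, and the within-gene form was not part of the plan. With PBS replicate 1 as the sole control, 9 of the 27 tested members had a limma adjusted p under 0.05, where 25.8% of all probe sets did. These were PMVK, NSDHL, DHCR7, SCAP, NPC2, TSPO and APOE on the higher side and VLDLR and MYLIP on the lower. That fit assumes that 1 array varies like the others, and 0 probe sets were called without PBS replicate 1.

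Probe sets of the same gene gave a further view of this spread. Of the 18 members with several probe sets, 4 (INSIG2, SREBF1, OSBP and TSPO) had kept probe sets on opposite sides of 0 in the pooled difference, which is 22.2%, against 49.8% of 4433 genes with several. With either PBS array as the sole control 7 of the 18 did (38.9%), against 52.1% of those genes with PBS replicate 1 and 49.5% with PBS replicate 2. In the pooled difference 11 of 12 further probe sets of synthesis enzymes lay on the same side as the brightest. No share of all genes is given beside this. The exception was a TM7SF2 probe set with signals of 3.77 to 56.3, below the filter. FDFT1 and NSDHL were near 0, at 0.02 and 0.085. Between the PBS arrays a further probe set of each of IDI1, FDFT1, CYP51A1, TM7SF2, NSDHL and EBP changed sign. Those of MVK, MVD and SQLE, and the other of IDI1, were positive against both. The probe sets of a member disagreed by a median of 1.24 on the log2 scale in the contrast of the 2 PBS arrays (1.21 over all genes), but by 0.35 in that of the 2 rhLH arrays (0.43 over all genes). The PBS arrays differed at least 2-fold for 10 of the 28 members and 35.1% of all genes, and the rhLH arrays for 0 members and 11.6% of all genes.

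**Figure D4:**
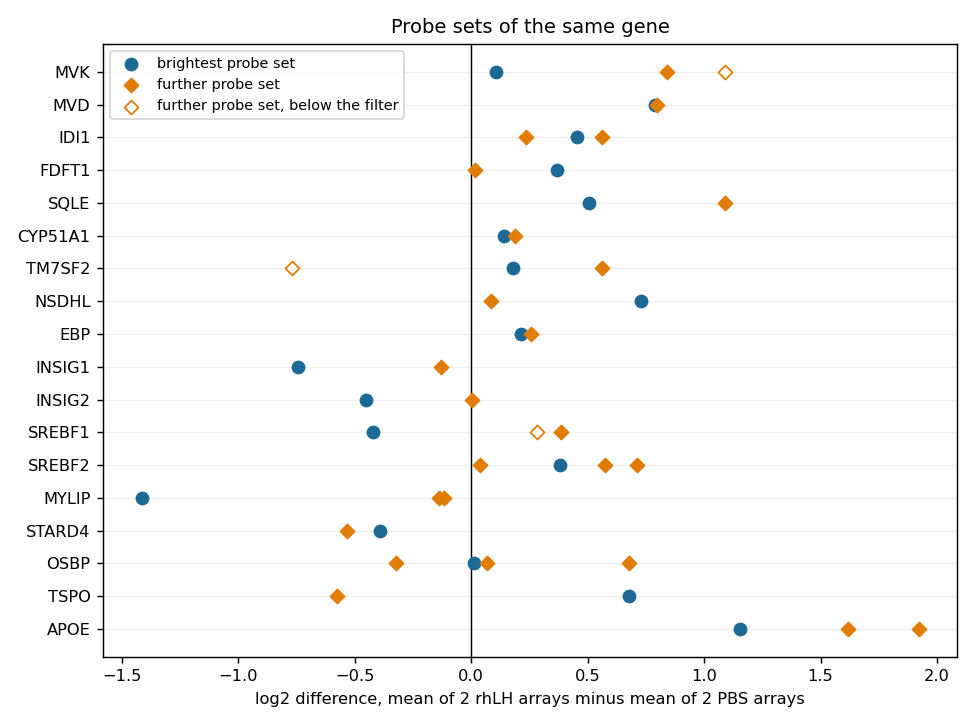
Pooled log2 difference, rhLH minus PBS, of each probe set for the 18 members that have several, with circles for the brightest and diamonds for the others. The 2 MVD probe sets coincide near 0.79, those of APOE and SREBF2 lie right of 0, and those of TSPO lie on either side.

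Other genes of the pathway came from a list of 83, of which 50 were measured and 46 tested, and 0 passed in either direction (limma, adjusted p under 0.05; 1 higher and 1 lower at an unadjusted p under 0.05). The share at an unadjusted p over all probe sets was the 2.02% given above. The median of the 50 was 0.03, with 5 (10%) above and 11 (22%) below both PBS arrays, near the 15.1% and 17.5% of all genes. CH25H, which makes 25-hydroxycholesterol, an oxysterol that binds INSIG proteins and activates LXR, read 1169 and 3084 with PBS and 281 and 529 with rhLH. Both rhLH arrays were well below both PBS arrays, a 4.77-fold difference (log2 −2.25, SE 0.58, limma adjusted p = 0.919) that was −1.56 relative to PBS replicate 1 and −2.95 relative to replicate 2. HSD17B7, a sterol ketoreductase of the late pathway, read 2015 and 2412 with PBS and 5905 and 3759 with rhLH. Its log2 difference was 1.09 (SE 0.36), at 1.22 relative to PBS replicate 1 and 0.96 relative to replicate 2. The direction was the same on its 2 further probe sets (1.74 and 0.20). The one at 1.74 differs in name from the brightest only by a suffix (MmugDNA.35206.1.S1).

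STARD10, a lipid transfer protein for phospholipids, read 40.5 and 77.5 with PBS and 170 and 173 with rhLH, the PBS values being under the filter level. NR1H2, the LXRβ receptor, read 491 and 1254 with PBS and 1589.6 and 1486 with rhLH, a log2 difference of 1.61 and 0.29 from the 2 PBS arrays. LXRα, NR1H3, lay at −0.19, and MBTPS2, a protease that frees SREBP, at −0.59, with 1873 and 1612 against 1103 and 1197.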

How the data were processed

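RNA from 4 corpora lutea samples, labelled with biotin, was read on 4 one-colour Affymetrix rhesus arrays. The deposited intensities are probe set signals of Microarray Suite 5.0 (MAS5), per the labels and the submitters' processing notes. The authors' scaling target, filter and detection calls were not stated in the sources at hand. The 2% trimmed mean was 500.0 on each array. Of 52865 probe sets 99 were controls. Of the other 52766, 24956 had 1 gene symbol, 361 several and 27449 none.

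Signals entered as log2(signal + 16) without further normalization. Probe sets above the 40th percentile of mean log2, a signal of 90.7, were kept (31659) and entered limma (version 3.58.1, R 4.3.3; linear fit, eBayes with trend, two-sided, Benjamini-Hochberg over all kept probe sets, threshold 0.05). Fold differences are differences of mean log2(signal + 16) put back on the linear scale, which understates low genes. Counts and medians over members used all measured members, filtered or not. On simulated data for this comparison over 31659 probe sets, 32.8% of 2-fold and 100.0% of 4-fold changes were recovered with arrays alike in noise. With the noise of PBS replicate 1 the share was 0% at 2-, 4- and 8-fold. The simulated noise was normal, with the same SD for every probe set of an array. It did not vary with signal as real noise can, so these shares need not hold for the deposited arrays. With 2 arrays per group, their number limits precision.

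Members, lists and tests were chosen with earlier results of these data known. Named genes were all members, given array by array, and of the other pathway genes those that passed, or else the 4 with the smallest p whose groups did not overlap. LXRα (NR1H3) and MBTPS2 were named after their values were seen. Marker lists of T cells, fibroblasts, pericytes and smooth muscle, red cells and theca-lutein cells summed to 90.8, 32598, 5458, 1123 and 1715 on PBS replicate 1. On the other arrays these sums were 50.7 to 133, 54775 to 63334, 8319 to 9678, 898.5 to 1235 and 2296 to 6687. The genes measured were 1 of 5, 5 of 6, 4 of 8, 2 of 4 and 1 of 2 in the same order. The T cell value is thus CD8A alone and the theca-lutein value CYP17A1 alone. Probe mismatches to the bonnet monkey were not examined, and no sequences were used here. Alternatives were quantile normalization, median centring, pseudocounts of 1 and 64, other filters, eBayes without a trend, averaged probe sets and leaving out each array.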

Additional observations from a re-analysis of the deposited data

How the results depend on the processing

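The synthesis median of 0.41 kept its sign under the alternatives run. It was 0.057 to 0.58 with 1 array left out at a time, the low value being that without rhLH replicate 4. The uptake and transport median of −0.09 was 0.14 with median centring, −0.25 with quantile normalization and −0.12 to −0.046 with an array left out. The difference of the 2 medians taken from signal levels, which compares different probe sets, was 0.85 and ran from 0.13 without PBS replicate 1 to 1.58 without PBS replicate 2. The limma count of 0 probe sets ran from 0 to 8169 with an array left out, the latter without PBS replicate 2, and was 0 in the other settings. Synthesis enzymes above both PBS arrays numbered 3 to 9 and uptake and transport genes below them 2 to 6 with an array left out, and 6 enzymes lay above with median centring and 2 with quantile normalization. These 2 counts were added after the data were seen, and no share of all genes is given beside them for these settings.

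Of 28 members, 11 kept their direction in all settings run: FDFT1, IDI1, INSIG1, INSIG2, MVD, MYLIP, NSDHL, SQLE, SREBF2, TSPO and VLDLR. Of these, SQLE and IDI1 were as low as 0.03 and 0.09 without rhLH replicate 4, and TSPO 0.025 without PBS replicate 1. The dimmer TSPO probe set was at −0.58, the further INSIG2 probe set at 0.005 and the further MYLIP probe sets at −0.12 and −0.14. No share of all genes that kept direction is given, so the 11 cannot be set against a general level. Under quantile normalization FDPS was −0.089, LIPA −0.25 and OSBP −0.022. With median centring NPC1 was 0.14 and STARD3 0.079, and with all probe sets averaged SREBF1 was 0.082 and TM7SF2 −0.01. With 1 array left out the ranges that crossed 0 were ABCA1 −2.32 to 0.42, APOE −0.41 to 2.72, CYP51A1 −0.49 to 0.77, DHCR7 −0.41 to 2.87, EBP −0.12 to 0.55, FDPS −0.051 to 0.077, LIPA −0.079 to 0.10, MVK −0.11 to 0.32, NPC1 −0.42 to 0.24, NPC2 −0.085 to 0.85, OSBP −0.12 to 0.14, PMVK −0.052 to 1.17, SCAP −0.51 to 1.62, SREBF1 −0.99 to 0.14, STARD3 −0.33 to 0.033, STARD4 −0.85 to 0.069 and TM7SF2 −0.19 to 0.55. The cause was not tested. No paired analysis was possible because the groups share no replicate numbers. Signal limited ABCA1, which lay under the filter level on 3 of 4 arrays.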
